A study of Mus musculus with 72 samples.

Results

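The transcripts of 9 enzymes that take amino acids apart were followed in the liver across the day, in mice with and without the liver clock and with and without gut microbes. The genes were Got1, Gpt, Gpt2, Tat, Hpd, Tdo2, Hal, Sds and Prodh, found in the count table by the Ensembl identifiers that map to these symbols. All 9 were present among the 55573 genes counted, and all 9 passed the filter on low counts in every comparison. The samples were 72 livers of male C57BL/6 mice, all carrying Bmal1 fl/fl, an allele whose marked part is cut out wherever Cre recombinase is made. WT mice carried that allele alone. LKO mice had in addition the Albumin-Cre transgene, whose albumin promoter is active in hepatocytes, and the study describes the deletion as liver-specific. Mice of either genotype were specific pathogen-free (SPF), with a normal flora, or germ-free (GF), with no microbes, and the GF line was rederived from the SPF line. The mice were adult, housed singly with food at all times under equal periods of light and dark, and killed at Zeitgeber time (ZT, hours after lights on) 2, 6, 10, 14, 18 and 22, with 3 livers for each of the 4 conditions at each ZT and therefore 18 livers per condition.

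The liver is the main organ that breaks down most dietary amino acids other than the branched-chain ones. Aminotransferases first move the nitrogen to glutamate, dehydratases, lyases and oxygenases then open or deaminate the carbon skeletons, and the products enter gluconeogenesis, the citric acid cycle or ketone body synthesis. Several of these enzymes are classic targets of glucocorticoids, glucagon and feeding, and tyrosine aminotransferase is a long-known example of a liver enzyme that cycles over the day. Got1 encodes the cytosolic aspartate aminotransferase, Gpt the cytosolic alanine aminotransferase and Gpt2 its mitochondrial counterpart. Tat encodes tyrosine aminotransferase, the first step of tyrosine breakdown, and Hpd the dioxygenase of the following step. Tdo2 encodes the tryptophan dioxygenase that opens the indole ring, Hal histidine ammonia-lyase, Sds serine dehydratase, which makes pyruvate from serine, and Prodh the mitochondrial proline dehydrogenase.

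On mouse GRCm38, Got1 (ENSMUSG00000025190) lies on chromosome 19 from 43499752 to 43524605, Gpt (ENSMUSG00000022546) on chromosome 15 from 76695716 to 76699686, and Gpt2 (ENSMUSG00000031700) on chromosome 8 from 85492576 to 85527560. Tat (ENSMUSG00000001670) lies on chromosome 8 from 109990437 to 109999803, and Hpd (ENSMUSG00000029445) on chromosome 5 from 123171807 to 123182727. Tdo2 (ENSMUSG00000028011) lies on chromosome 3 from 81957090 to 81976202, Hal (ENSMUSG00000020017) on chromosome 10 from 93488768 to 93519304, Sds (ENSMUSG00000029597) on chromosome 5 from 120476526 to 120483932, and Prodh (ENSMUSG00000003526) on chromosome 16 from 18060357 to 18090203. Counts were summed over the exons of each gene. Sds shared 501 of its 1694 exonic bases (29.6%) with exons of Gm15690 or Plbd2, and with the counting used, which ignored strand and dropped reads that overlapped several genes, reads within that stretch were not counted for Sds. The exons of the other 8 genes overlapped no other gene of the table.

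Promoter windows from RefSeq (assembly GRCm38.p6, 250 bases before to 50 after the transcript start) matched 7 of the 9 genes, namely Tat, Tdo2, Hpd, Hal, Got1, Gpt2 and Prodh. The windows of Tdo2, Gpt2 and Got1 are shown because these 3 genes differed between LKO and WT livers in GF mice, as described further on. They are written 5′ to 3′ on the strand of the gene, with capitals marking the only match found to any of the clock or glucocorticoid motifs searched.
Tdo2, chr3:81975679-81975978, minus strand: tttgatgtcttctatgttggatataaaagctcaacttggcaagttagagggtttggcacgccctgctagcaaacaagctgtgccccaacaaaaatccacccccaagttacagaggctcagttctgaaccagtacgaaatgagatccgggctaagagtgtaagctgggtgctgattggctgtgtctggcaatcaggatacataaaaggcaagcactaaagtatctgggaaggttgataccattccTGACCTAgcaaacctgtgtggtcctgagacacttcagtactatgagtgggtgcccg
Gpt2, chr8:85492326-85492625, plus strand: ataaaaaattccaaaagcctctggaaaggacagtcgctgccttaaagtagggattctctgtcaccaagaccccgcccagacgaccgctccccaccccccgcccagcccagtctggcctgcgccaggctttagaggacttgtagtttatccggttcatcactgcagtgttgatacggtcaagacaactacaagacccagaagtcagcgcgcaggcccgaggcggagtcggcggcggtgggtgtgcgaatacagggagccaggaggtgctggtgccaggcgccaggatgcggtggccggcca
Got1, chr19:43524556-43524855, minus strand: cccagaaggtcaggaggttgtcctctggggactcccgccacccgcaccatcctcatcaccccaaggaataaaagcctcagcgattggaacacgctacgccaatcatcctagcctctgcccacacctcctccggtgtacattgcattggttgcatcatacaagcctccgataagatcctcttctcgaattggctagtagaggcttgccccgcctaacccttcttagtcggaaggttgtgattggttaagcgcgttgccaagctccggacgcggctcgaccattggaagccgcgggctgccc
The motifs were searched on both strands. The E-box CACGTG, which BMAL1 and its partners bind, was in 0 of the 7 windows and in 7.15% of 32851 windows of all genes. The D-box, searched as TTATGTAA or TTACGTAA, was in 0 of 7 and in 1.06% of all windows, and the glucocorticoid receptor hexamer TGTTCT was in 0 of 7 and in 19%. The ROR and REV-ERB element TAGGTCA, which contains the hexamer AGGTCA bound by many nuclear receptors, was in 1 of 7 windows and in 2.61% of all. That match was in Tdo2, read as TGACCTA on the strand shown, and began 6 bases before the start. These are matches of letters only, and a window without a match says nothing about sites elsewhere.

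Each library held between 17369927 and 22076113 counted reads, with a median of 19106726. The 9 genes were therefore well covered, from 725 reads for Sds in its lowest library to 73525 for Tat in its highest. The label check showed some disagreement. Npas2, a clock gene that rises when BMAL1 is lost, was at 0.22 CPM (counts per 1000000, scaled by TMM factors) in one library with the label SPF LKO ZT14 replicate 2, while it read 25.4 and 24.2 in the other livers of that group, and at 1.81 in SPF LKO ZT18 replicate 1, against 36.7 and 27.6. Arntl, the gene of BMAL1, was at 2.12 CPM in SPF WT ZT14 replicate 3 against 15.9 and 19.4, and at 8.19 in GF WT ZT6 replicate 3 against 1.62 and 2.44. Its reads outside the deleted part are still counted, so Arntl does not by itself check a genotype. By Npas2 these WT livers were as low as the others of their groups. SPF WT ZT14 replicate 3 read 0.21 CPM against 0.05 and 0.16, and GF WT ZT6 replicate 3 read 0.11 against 0.36 and 0.19. These 4 libraries are kept in the results. Values without them are given beside the calls that leaving them out ends, and beside those it adds in the pooled and rhythm tests. Calls that it adds at single ZT are counted further on but not named.

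The summed level of 4 pancreatic acinar markers had a median of 0 CPM in every condition, 3 lymphocyte markers reached at most 3.44 CPM, and 4 Kupffer cell markers had medians of 238 CPM in SPF WT and 213 in GF WT, and lower ones of 201 in SPF LKO and 179 in GF LKO. The sum of 4 cholangiocyte markers had higher medians in LKO livers. It went from 8.03 to 13.5 CPM in SPF and from 6.58 to 9.64 in GF mice. In SPF mice only Sox9 of the 4 rose, from a median of 3.81 to 10.0 CPM. Krt19 (1.31 to 0.93), Krt7 (0.79 to 0.57) and Epcam (1.63 to 1.14) fell there. In GF mice Sox9, Krt19 and Epcam were higher and Krt7 was lower. The sum of 4 stellate cell markers was also higher in LKO livers, from 126 to 146 in SPF and from 127 to 151 in GF mice. Each of the 4 was higher in both, except Colec11 in SPF mice, which was lower (39.8 to 38.7). The sum of 5 periportal hepatocyte markers had lower medians in LKO livers. It went from 3944 to 3117 CPM in SPF and from 4878 to 3870 in GF mice. Pck1 fell most, from 2603 to 1689 CPM in SPF and from 3502 to 2615 in GF mice. Cyp2f2, Aldh1b1 and Ctsc were also lower in both, while Gls2 was higher (312 to 338 and 372 to 419). The sum of 5 pericentral markers was lower in LKO livers too, from 8961 to 8530 CPM and from 11122 to 8830. Most of that sum was Cyp2e1 (7724 to 7245 CPM in SPF mice). In SPF mice Glul and Rhbg were lower as well, while Cyp1a2 (554 to 594) and Lgr5 (6.97 to 7.25) were higher. In GF mice each of the 5 was lower. Among 5 hepatocyte markers, albumin itself moved with genotype, from 59462 to 106012 CPM in SPF WT and 85999 to 136115 in GF WT, but from 24772 to 101317 in SPF LKO and 25457 to 43347 in GF LKO. The other 4 (Ttr, Apoa1, Cps1 and Serpina1c) together had medians of 18661 CPM in SPF WT and 18863 in SPF LKO, and of 25498 in GF WT and 25113 in GF LKO, so they moved with microbial status. The part of these shifts in the results was not tested. In whole liver, fewer cells of a type and less RNA per cell cannot be told apart.

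Levels between genes were compared as CPM per kilobase of exon. Hpd, Tat and Tdo2 were among the most abundant transcripts of the liver, with medians over the 72 livers of 1030, 839 and 618 CPM per kb, which placed them at ranks 52, 62 and 83 of 13484 genes. Got1 followed with 152 CPM per kb, then Gpt with 92.2, Gpt2 with 76.1, Hal with 66.6, Sds with 57.1 and Prodh with 24.6. The length of Sds used here, 1694 bases, includes the 501 bases whose reads were not counted. Its value per kb is therefore too low, and its place below Gpt2 and Hal is not established. The lowest of all Tdo2 values, 408 CPM per kb, lay above the highest Got1 value, 368, and these neighbours did not overlap. Every other pair of neighbours in this order overlapped in range, and the lowest Tat value, 300 CPM per kb, lay below the highest of Got1. The spread within a gene was largest for Got1, whose highest library was 8.54 times its lowest, and for Tat, at 5.83 times, and it was smallest for Gpt, at 2.22 times.

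**Figure D1:**
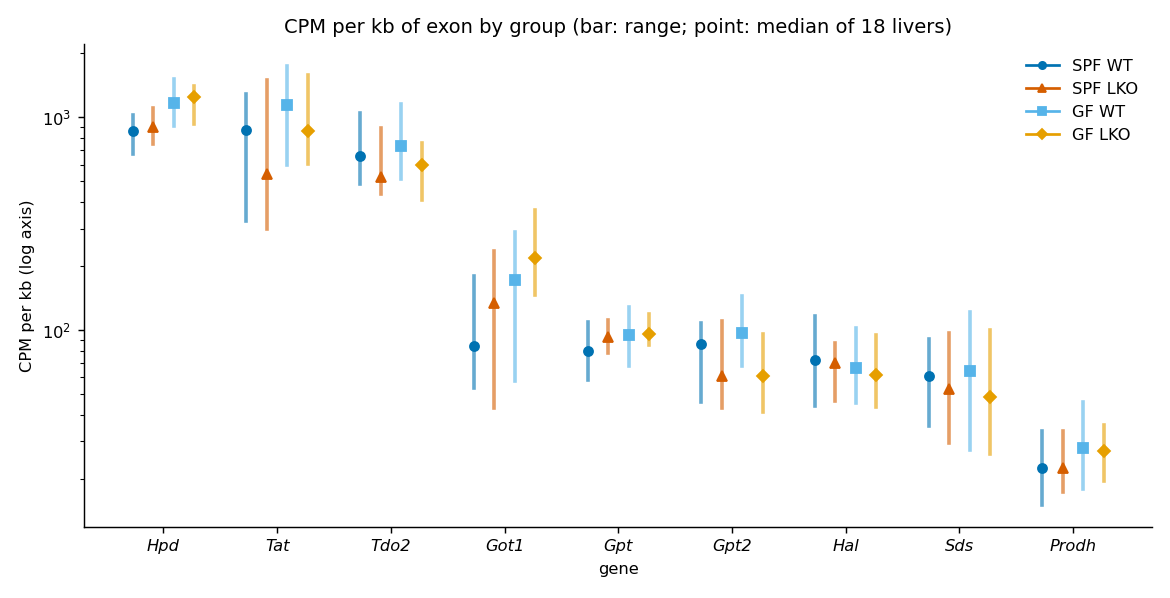
CPM per kb of exon (log axis) for the 9 genes, ordered by their median over 72 livers, with a bar for the range and a point for the median of 18 livers in each condition. Hpd, Tat and Tdo2 have the highest medians and Prodh the lowest, 24.6. Sds is drawn too low, because its length includes bases whose reads were not counted.

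In SPF mice, loss of the liver clock went with higher Got1 and Gpt and lower Tdo2, averaged over the 6 ZT. Got1 was 1.49-fold higher in SPF LKO than in SPF WT livers, Gpt 1.16-fold higher and Tdo2 0.827 times its WT level. Of the 9 genes 3 were called, 2 higher and 1 lower, at an adjusted p under 0.05 in edgeR's quasi-likelihood test over all genes, where 23.1% of 13159 genes were called. The median log2 fold change of the 9 was -0.12, against -0.01 over all genes. Both genotype comparisons within one microbial status use separate animals, while the comparisons of GF with SPF reuse the same livers as the genotype comparisons.

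Got1 ranged from 136 to 455 CPM in SPF WT (median 213) and from 109 to 599 CPM in SPF LKO (median 339). The ranges overlapped, but 17 of the 18 SPF LKO livers lay above the SPF WT median, and the mean was higher in LKO at 6 of 6 ZT. The log2 fold change was 0.58 ± 0.15 (SE, adjusted p = 0.00436 by edgeR). Both ends of the LKO range came from libraries that go against their labels, SPF LKO ZT18 replicate 1 at 109 CPM and SPF LKO ZT14 replicate 2 at 599 CPM, and without the 4 doubted libraries the log2 fold change was 0.65 (adjusted p = 2.49e-05).

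Gpt, the cytosolic alanine enzyme, ranged from 170 to 322 CPM in SPF WT (median 235) and from 231 to 328 CPM in SPF LKO (median 274). Its log2 fold change was 0.21 ± 0.07 (SE, adjusted p = 0.0195), with a higher mean in LKO at 6 of 6 ZT. Gpt2, the mitochondrial counterpart, lay on the other side: it ranged from 258 to 610 CPM in SPF WT (median 486) and from 243 to 620 CPM in SPF LKO (median 341), with a lower mean in LKO at 6 of 6 ZT. Its log2 fold change of -0.31 ± 0.12 (SE) missed the threshold, with an adjusted p of 0.0503. It passed in DESeq2 (adjusted p = 0.0469), with RLE scaling (adjusted p = 0.0483), and without the 4 doubted libraries, where it was -0.39 (adjusted p = 0.00837). The highest SPF LKO value of Gpt2, 620 CPM, was again SPF LKO ZT14 replicate 2, and without this library alone the log2 fold change was -0.37 (adjusted p = 0.0112).

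Tdo2 ranged from 1877 to 4051 CPM in SPF WT (median 2569) and from 1686 to 3452 CPM in SPF LKO (median 2033). Its log2 fold change was -0.27 ± 0.09 (SE, adjusted p = 0.0219). At 5 of 6 ZT the mean was lower in LKO and all 3 LKO livers lay below all 3 WT livers, a pattern that 0.645% of 13484 genes showed at 5 or more ZT. The exception was ZT14, where the SPF LKO livers read 2383, 2861 and 3452 CPM (the last in the doubted replicate 2) and the WT livers 2936, 2390 and 2294, so the groups overlapped.

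Tat, by contrast, varied widely between livers, and its lower level was not called. It ranged from 785 to 3106 CPM in SPF WT (median 2106) and from 721 to 3590 CPM in SPF LKO (median 1304). The mean was lower in LKO at 6 of 6 ZT, and the log2 fold change was -0.41 ± 0.19 (SE, adjusted p = 0.119). The highest SPF LKO value was once more SPF LKO ZT14 replicate 2, and the other livers of that group read 1139 and 1512 CPM. Without this library the log2 fold change was -0.54 (adjusted p = 0.0212). Without both SPF LKO libraries that go against their labels it was -0.57 (adjusted p = 0.0159). With all libraries kept, Tat also passed with ZT as a covariate (-0.46, adjusted p = 0.0207). It passed likewise with the replicate number as a block (-0.46, adjusted p = 0.0370).

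The 4 genes that remain differed less between SPF LKO and SPF WT. Hpd had a log2 fold change of 0.10 ± 0.06, Hal of -0.12 ± 0.11, Sds of -0.12 ± 0.15 and Prodh of 0.01 ± 0.10 (SE), and no adjusted p was under 0.235. Prodh lay so near to zero that its sign turned when the doubted libraries were left out, to -0.06.

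In GF mice, LKO livers again had higher Got1 and lower Tdo2, and Gpt2 was clearly lower. Got1 was 1.36-fold higher in GF LKO than in GF WT livers, Tdo2 0.769 times and Gpt2 0.671 times its WT level. Of the 9 genes 3 were called, 1 higher and 2 lower, where 30.8% of 12662 genes were called. Their median log2 fold change was -0.16, against 0.01 over all genes.

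Gpt2 showed the most regular difference of all. It ranged from 383 to 818 CPM in GF WT (median 548) and from 232 to 542 CPM in GF LKO (median 344). At ZT2 the GF WT livers read 383, 390 and 419 CPM and the GF LKO livers 232, 266 and 285. At ZT10 they read 607, 654 and 738 CPM against 365, 542 and 511, and at ZT18 738, 555 and 608 against 408, 394 and 416. All 3 LKO livers lay below all 3 WT livers at 6 of 6 ZT, which 1.73% of 13484 genes showed. The log2 fold change was -0.57 ± 0.12 (SE, adjusted p = 0.00018).

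Tdo2 ranged from 2001 to 4482 CPM in GF WT (median 2844) and from 1583 to 2928 CPM in GF LKO (median 2310). Its log2 fold change was -0.38 ± 0.09 (SE, adjusted p = 0.00067), with a lower mean in LKO at 6 of 6 ZT. The 3 livers of each group were separated only at ZT6, where GF WT read 2966, 3589 and 3470 CPM and GF LKO 1860, 2124 and 2473. Groups of 3 that do not overlap, with LKO lower, made up 13.6% of gene-by-ZT pairs over all genes.

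Got1 ranged from 146 to 737 CPM in GF WT (median 436) and from 373 to 933 CPM in GF LKO (median 554). Its log2 fold change was 0.45 ± 0.15 (SE, adjusted p = 0.0235), with a higher mean in LKO at 6 of 6 ZT and 17 of 18 LKO livers above the WT median. At ZT18 the GF WT livers read 308, 345 and 146 CPM and the GF LKO livers 373, 529 and 607, so the groups did not overlap there. At ZT2 they read 463, 488 and 428 against 599, 492 and 520, so they did not overlap there either, although by a small margin. Over all genes, LKO livers lay wholly above in 13.5% of gene-by-ZT pairs.

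The other 6 genes were not called between GF LKO and GF WT. Tat had a log2 fold change of -0.23 ± 0.15, Sds of -0.28 ± 0.18, Prodh of -0.16 ± 0.11, Hal of -0.14 ± 0.10, Gpt of 0.05 ± 0.07 and Hpd of 0.03 ± 0.06 (SE), with adjusted p from 0.234 to 0.745. Tat was lower in mean at 6 of 6 ZT in GF as in SPF mice, without passing the test in either.

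**Figure D2:**
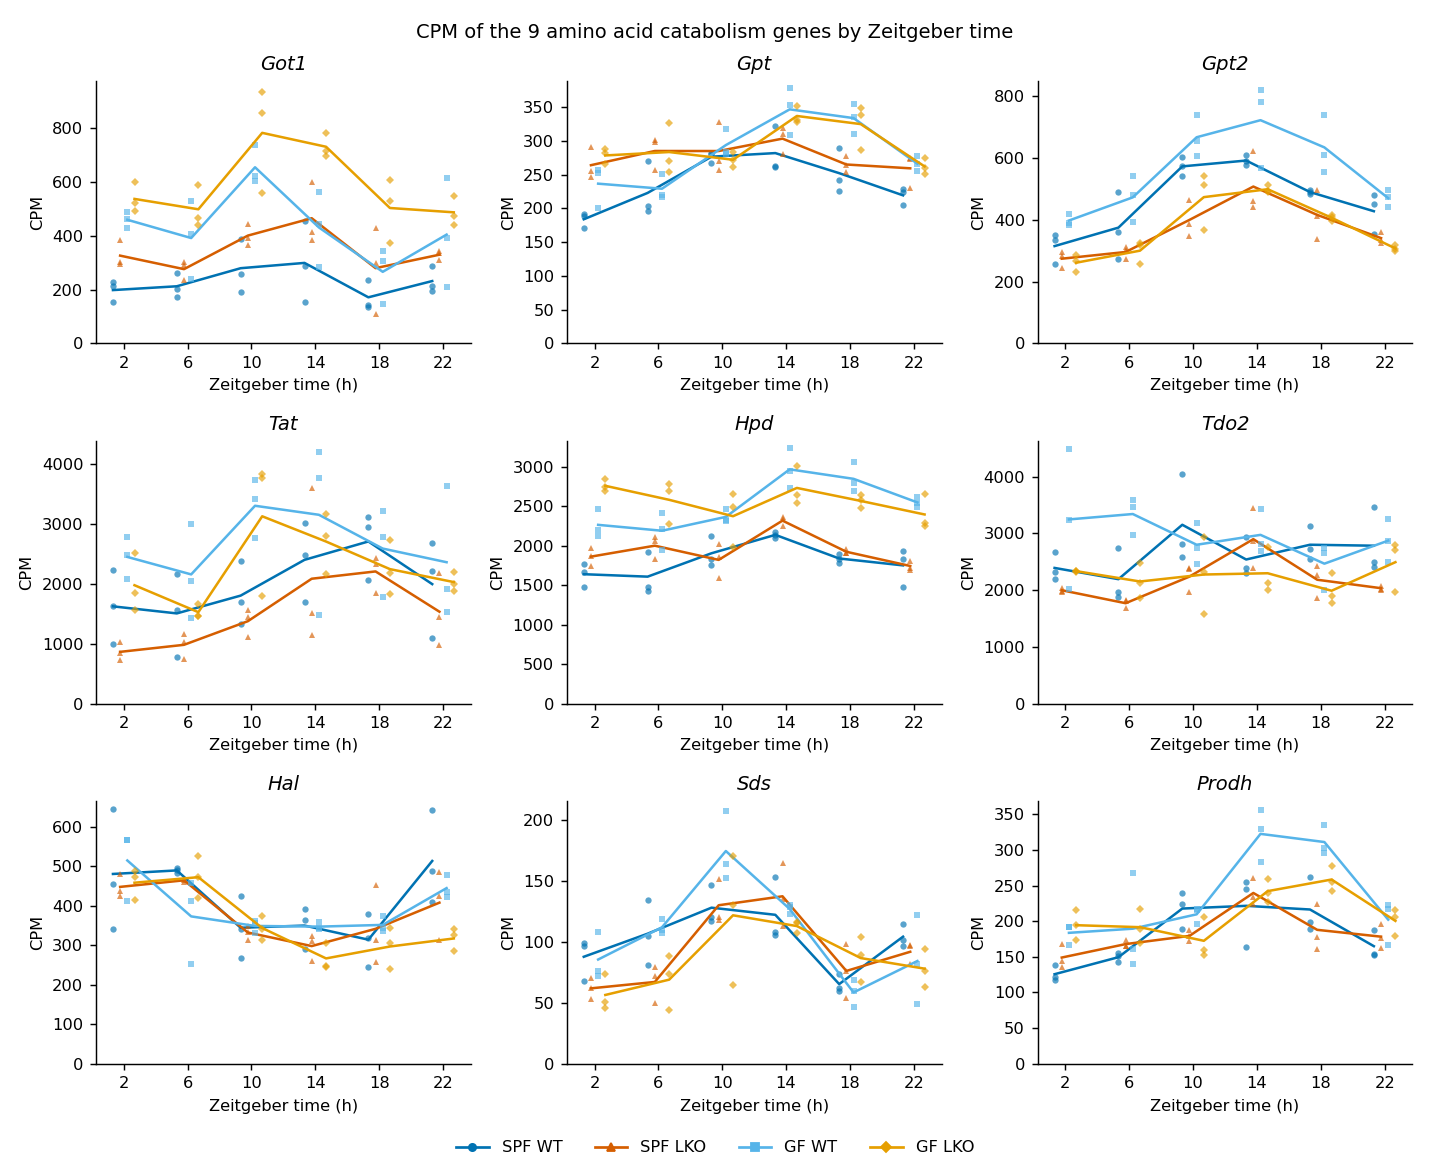
CPM of each gene against ZT in hours, with one point per liver, a line through the mean of 3 livers and a colour for each of the 4 conditions. Got1 is highest in GF LKO and lowest in SPF WT, and the Gpt2 lines of both LKO groups run below those of both WT groups.

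Whether the effect of genotype itself differed between GF and SPF mice was tested as an interaction over the 72 libraries. By edgeR 0 of the 9 genes were called, where 0.438% of 13484 genes were, and 0 had an unadjusted p under 0.05. DESeq2 also called 0. The largest differences were for Gpt2, with an extra log2 change of -0.27 ± 0.17 in GF mice, and for Prodh, with -0.18 ± 0.15 (SE). Gpt, called in SPF and not in GF mice, differed by -0.17 ± 0.10 (SE, adjusted p = 0.879). The differences in which genes were called in SPF and in GF mice are therefore not shown to be differences in the effect.

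In livers with an intact clock, 4 of the 9 genes were higher in GF than in SPF mice. In GF WT livers Got1 was 1.85-fold, Hpd 1.38-fold, Prodh 1.28-fold and Gpt 1.17-fold the SPF WT level. Of the 9 genes 4 were called, all higher, where 14.2% of 12776 genes were called higher and 31.8% in either direction. Their median log2 fold change was 0.26, against -0.02 over all genes. The 4 hepatocyte markers other than albumin were also higher in GF livers, as given above.

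Hpd, the tyrosine pathway dioxygenase, separated the groups best. It ranged from 1428 to 2180 CPM in SPF WT (median 1833) and from 1945 to 3236 CPM in GF WT (median 2477), and 16 of the 18 GF WT livers lay above every SPF WT liver. At ZT18 the SPF WT livers read 1836, 1897 and 1784 CPM and the GF WT livers 3060, 2797 and 2688. All 3 GF livers lay above all 3 SPF livers at 6 of 6 ZT, which 0.23% of 13484 genes showed. The log2 fold change was 0.46 ± 0.06 (SE, adjusted p = 1.8e-06).

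Got1 had the larger change and the larger spread, with a log2 fold change of 0.88 ± 0.17 (SE, adjusted p = 0.000165) and 8 of 18 GF WT livers above every SPF WT liver. At ZT2 the SPF WT livers read 214, 154 and 227 CPM and the GF WT livers 463, 488 and 428. At ZT18 they read 145, 234 and 136 against 308, 345 and 146, so the groups overlapped. Prodh rose by 0.35 ± 0.12 on the log2 scale (SE, adjusted p = 0.025), from a median of 176 CPM to 217, with a higher mean at 5 of 6 ZT.

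Gpt rose by 0.23 ± 0.08 on the log2 scale (SE, adjusted p = 0.0315). This call was lost when any 1 of 4 libraries was left out, namely SPF WT ZT2 replicate 1 (adjusted p = 0.0506), GF WT ZT14 replicate 1 (0.0561), GF WT ZT14 replicate 3 (0.0518) or GF WT ZT18 replicate 3 (0.0529). Of the genes not called, Tat had a log2 fold change of 0.39 ± 0.17 (SE, adjusted p = 0.0668), Gpt2 of 0.26 ± 0.12 (adjusted p = 0.088, and 0.00398 with the replicate number as a block) and Tdo2 of 0.14 ± 0.09 (adjusted p = 0.25). Tat passed in DESeq2 (adjusted p = 0.0484), with the block (adjusted p = 0.0270) and without the 4 doubted libraries (0.47, adjusted p = 0.0261). Hal at -0.09 ± 0.11 and Sds at 0.04 ± 0.16 (SE) lay near zero.

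Without the liver clock, GF livers had higher Got1, Tat and Hpd than SPF livers. Got1 in GF LKO was 1.70-fold, Tat 1.5-fold and Hpd 1.32-fold the SPF LKO level. Of the 9 genes 3 were called, all higher, where 18.1% of 13010 genes were called higher and 36.4% in either direction. Their median log2 fold change was 0.08, against -0.02 over all genes.

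All 18 GF LKO livers lay above the SPF LKO median for each of these 3 genes. Got1 had a log2 fold change of 0.77 ± 0.13 (SE, adjusted p = 2.82e-05), and all 3 GF livers lay above all 3 SPF livers at 5 of 6 ZT, which 2.01% of 13484 genes showed at 5 or more ZT. Hpd had a log2 fold change of 0.40 ± 0.05 (SE, adjusted p = 3.84e-07), and was separated likewise at 5 of 6 ZT. Tat had a log2 fold change of 0.59 ± 0.18 (SE, adjusted p = 0.00906), from a median of 1304 CPM in SPF LKO to 2077 in GF LKO, and was separated at 3 of 6 ZT, against 11.5% of genes at 3 or more.

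Prodh missed the threshold in LKO livers, at 0.19 ± 0.08 (SE, adjusted p = 0.0606), and passed it without the doubted libraries, at 0.25 (adjusted p = 0.00963). Gpt at 0.08 ± 0.05, Tdo2 at 0.04 ± 0.08, Gpt2 at 0.01 ± 0.12, Hal at -0.09 ± 0.11 and Sds at -0.11 ± 0.17 (SE) were not called.

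**Figure D3:**
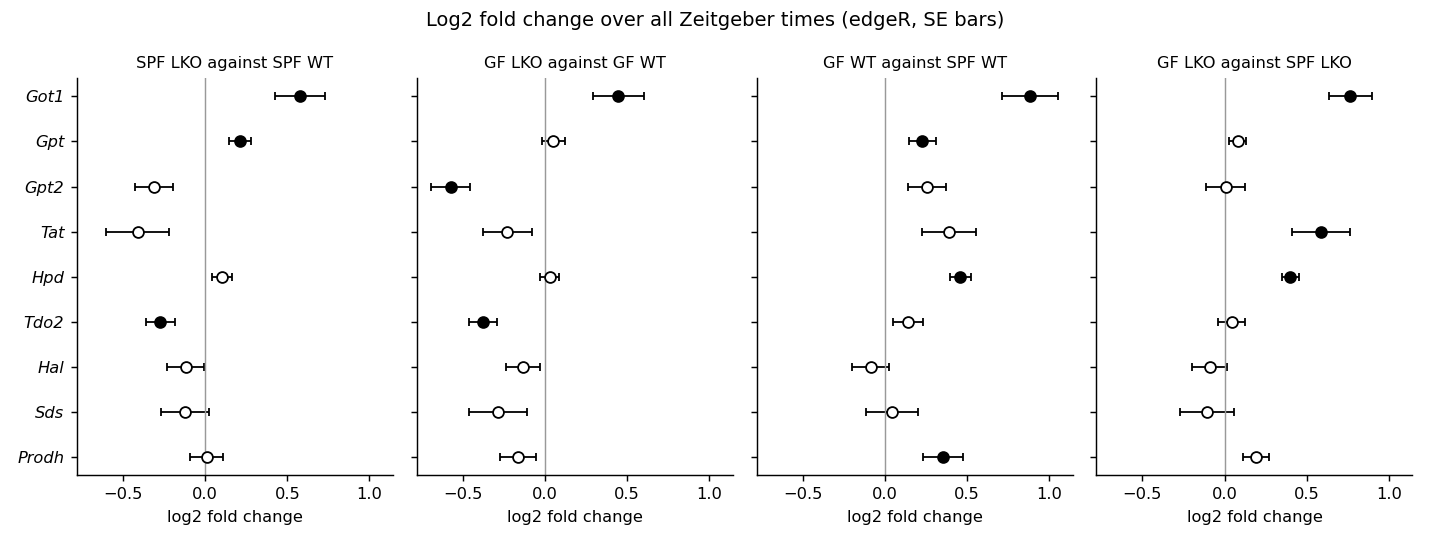
Log2 fold change (horizontal axis, bars are SE) of each gene in the 4 comparisons averaged over ZT, with filled points for an adjusted p under 0.05. Got1 is filled and above zero in every panel, Tdo2 and Gpt2 lie below zero in the genotype panels, and Hpd is filled in both comparisons of GF with SPF.

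Across the 4 comparisons, Got1 was the gene called higher in each of them. Its mean level rose from 232 ± 84 CPM in SPF WT through 346 ± 101 in SPF LKO and 434 ± 161 in GF WT to 590 ± 152 in GF LKO (SD, n = 18 each). The ranges of neighbours in this order overlapped. Hal and Sds, the ammonia-releasing lyase and dehydratase, were called in none of the 4, with log2 fold changes between -0.28 and 0.04.

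At single ZT, with 3 livers against 3, few genes passed. Between SPF LKO and SPF WT 4 of 54 gene-by-ZT tests were called, where 4.92% of all such tests were. Of these, 3 were at ZT2, shortly after lights on, where 6.89% of 13596 genes were called. At ZT2 Tat was at 2227, 1001 and 1633 CPM in SPF WT and at 721, 1020 and 846 CPM in SPF LKO, with a log2 fold change of -0.92 ± 0.25 (SE, adjusted p = 0.0459), and the groups overlapped by 1 liver of each. Got1 at the same ZT was 214, 154 and 227 CPM in SPF WT and 293, 303 and 383 in SPF LKO, with a log2 fold change of 0.71 ± 0.15 (SE, adjusted p = 0.0128). Gpt was 192, 189 and 170 CPM in SPF WT and 246, 290 and 256 in SPF LKO, with a log2 fold change of 0.52 ± 0.11 (SE, adjusted p = 0.0159). At ZT2, therefore, the cytosolic aminotransferases of aspartate and alanine were higher and Tat was lower in the same SPF LKO livers. The fourth call was Gpt2 at ZT10, with a log2 fold change of -0.52 ± 0.15 (SE, adjusted p = 0.0382). At ZT18, where 1 SPF LKO library goes against its label, 0.015% of all genes were called.

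Between GF LKO and GF WT 6 of 54 tests were called, where 7.99% of all tests were, and 5 of the 6 were Gpt2. The log2 fold changes of Gpt2 were -0.60, -0.65 and -0.49 in the light (ZT2, ZT6 and ZT10) and -0.61 and -0.62 in the dark (ZT18 and ZT22), with adjusted p from 0.00818 to 0.0445. The call at ZT6 was lost without the doubted library GF WT ZT6 replicate 3 (-0.54, adjusted p = 0.123) and with the replicate number as a block (adjusted p = 0.0666). At ZT14 the GF WT livers spread from 566 to 818 CPM and the GF LKO livers from 490 to 513, and Gpt2 was not called. The remaining call was Tdo2 at ZT6, with a log2 fold change of -0.63 ± 0.16 (SE, adjusted p = 0.0227).

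Between GF WT and SPF WT 5 of 54 tests were called, where 2.89% of all tests were. Got1 was higher at ZT2, with a log2 fold change of 1.21 ± 0.15 (SE, adjusted p = 0.000941), and at ZT10, with 1.22 ± 0.23 (SE, adjusted p = 0.015). At ZT10 the SPF WT livers read 388, 260 and 191 CPM and the GF WT livers 737, 623 and 603. Hpd was higher at ZT2 (0.46 ± 0.11) and ZT18 (0.62 ± 0.10), and Prodh at ZT2 (0.55 ± 0.12, SE). Between GF LKO and SPF LKO 4 of 54 were called, where 2.71% of all tests were. At ZT2 Tat was at 2518, 1558 and 1841 CPM in GF LKO against 721, 1020 and 846 in SPF LKO, with a log2 fold change of 1.20 ± 0.26 (SE, adjusted p = 0.0135), and Got1 (0.72 ± 0.15) and Hpd (0.57 ± 0.11, SE) were higher too. Hpd was also higher at ZT18 (0.43 ± 0.10, SE), a call that was lost without the doubted library SPF LKO ZT18 replicate 1 (adjusted p = 0.0842), with the replicate number as a block (0.0614), without the filter on low counts (0.0552) and without each of the other 5 livers in turn.

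Of these 19 calls at single ZT, 4 held whichever of the 6 livers was left out, namely Got1 at ZT2 and ZT10 between GF WT and SPF WT, Hpd at ZT2 between GF LKO and SPF LKO, and at ZT22 Gpt2 in the genotype comparison of GF mice. DESeq2 called 4, 8, 14 and 10 tests in the 4 comparisons in the order above. The fit without a filter on low counts called 13, 16, 18 and 12. The shares over all genes given above are for the main fit, and those of these fits are not given here.

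**Figure D4:**
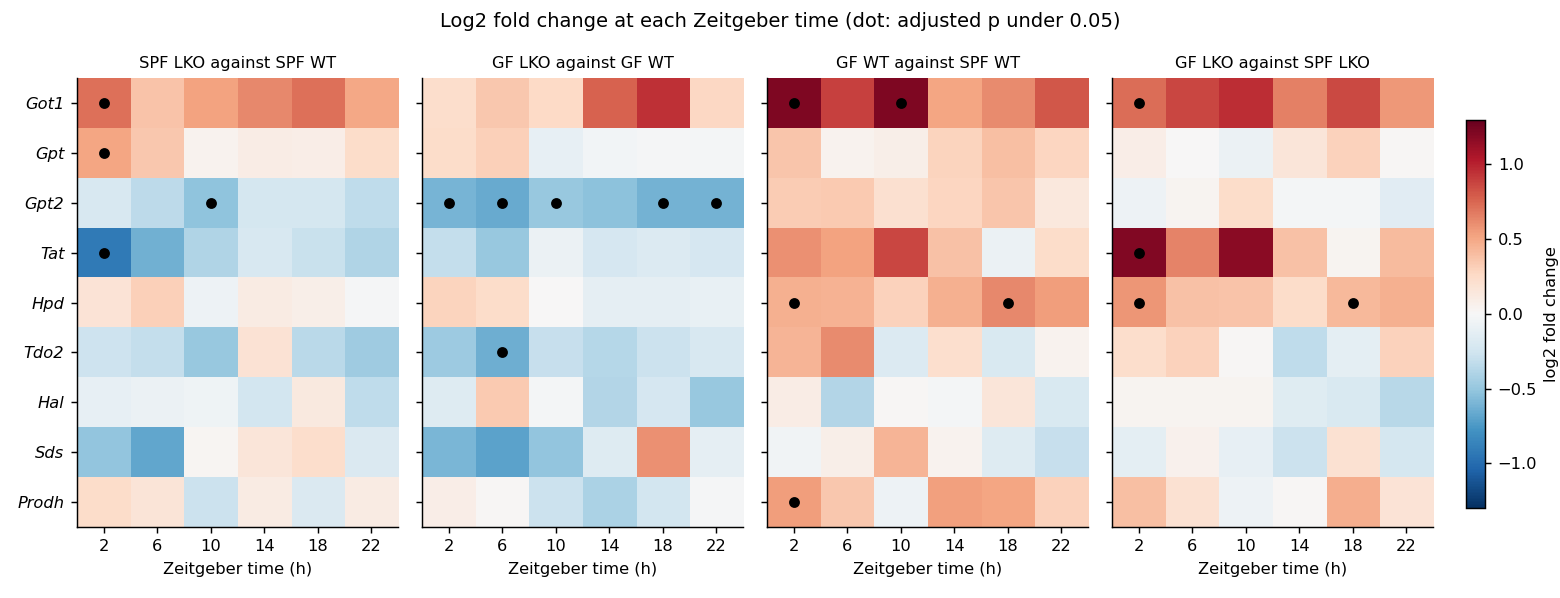
Log2 fold change (colour scale) of each gene at each ZT in the 4 comparisons, with a dot where the adjusted p was under 0.05. The Gpt2 row is blue at every ZT between GF LKO and GF WT with 5 dots, and the Got1 row is red at every ZT in all panels.

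A 24 h rhythm was fitted as a cosine curve within the 18 livers of each condition. Gpt2, Prodh and Hal were called rhythmic in all 4 conditions. In SPF WT 4 of 9 genes were called (15% of 13907 genes were), in SPF LKO 6 (21.2% of 14028), in GF WT 6 (26.7% of 13203) and in GF LKO 5 (35% of 13494). Amplitudes below are from the mean to the peak on the log2 CPM scale, from a least-squares fit with its SE.

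Gpt2 had a nearly fixed rhythm. Its fitted peak fell at ZT 14.0 ± 0.6 in SPF WT, 14.7 ± 0.6 in SPF LKO, 13.8 ± 0.5 in GF WT and 13.6 ± 0.4 in GF LKO (SE), shortly after lights off. The amplitude lay between 0.41 ± 0.06 in SPF LKO and 0.49 ± 0.05 in GF LKO, and the fitted peak was 1.78 to 1.97 times the trough. The adjusted p ran from 6.34e-06 in GF LKO to 0.00131 in SPF WT.

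Prodh also peaked in the dark, at ZT 14.3 ± 0.6 in SPF WT, 14.6 ± 0.8 in SPF LKO, 15.8 ± 0.7 in GF WT and 17.6 ± 1.0 in GF LKO (SE). In WT livers its amplitude was 0.42 ± 0.07 (SPF) and 0.46 ± 0.08 (GF), and in LKO livers 0.26 ± 0.06 (SPF) and 0.24 ± 0.06 (GF). In SPF WT it ran from a mean of 126 ± 11 CPM at ZT2 to 222 ± 50 at ZT14 (SD, n = 3). Hal was the one gene of the 3 called in every condition whose fitted peak fell in the light, at ZT 2.3 ± 1.2 in SPF WT, 2.7 ± 0.8 in SPF LKO, 0.7 ± 1.1 in GF WT and 4.2 ± 0.5 in GF LKO (SE). By means over 3 livers it was highest at ZT22 in SPF WT. Its amplitude lay between 0.26 ± 0.08 in GF WT and 0.42 ± 0.06 in GF LKO.

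The other genes were rhythmic in some conditions only. Gpt was called in both WT conditions, with amplitudes of 0.29 ± 0.05 in SPF WT (adjusted p = 0.00199) and 0.32 ± 0.04 in GF WT (adjusted p = 8.77e-05), and not in LKO livers, with 0.10 ± 0.04 in SPF LKO (adjusted p = 0.229) and 0.14 ± 0.05 in GF LKO (adjusted p = 0.0594). Hpd was called in GF WT, at 0.23 ± 0.03 (adjusted p = 0.00196), and read 0.01 ± 0.05 in GF LKO. Sds was called in 3 conditions, with amplitudes of 0.64 ± 0.13 in GF WT, 0.50 ± 0.14 in GF LKO and 0.50 ± 0.13 in SPF LKO. Tat (0.66 ± 0.15, adjusted p = 0.00462) and Tdo2 (0.25 ± 0.06, adjusted p = 0.0179) were called in SPF LKO, and Got1 (0.32 ± 0.10, adjusted p = 0.0109) in GF LKO (SE). With the replicate number as a block, Hpd (adjusted p = 0.0349) and Tat (0.0460) were also called in SPF WT.

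**Figure D5:**
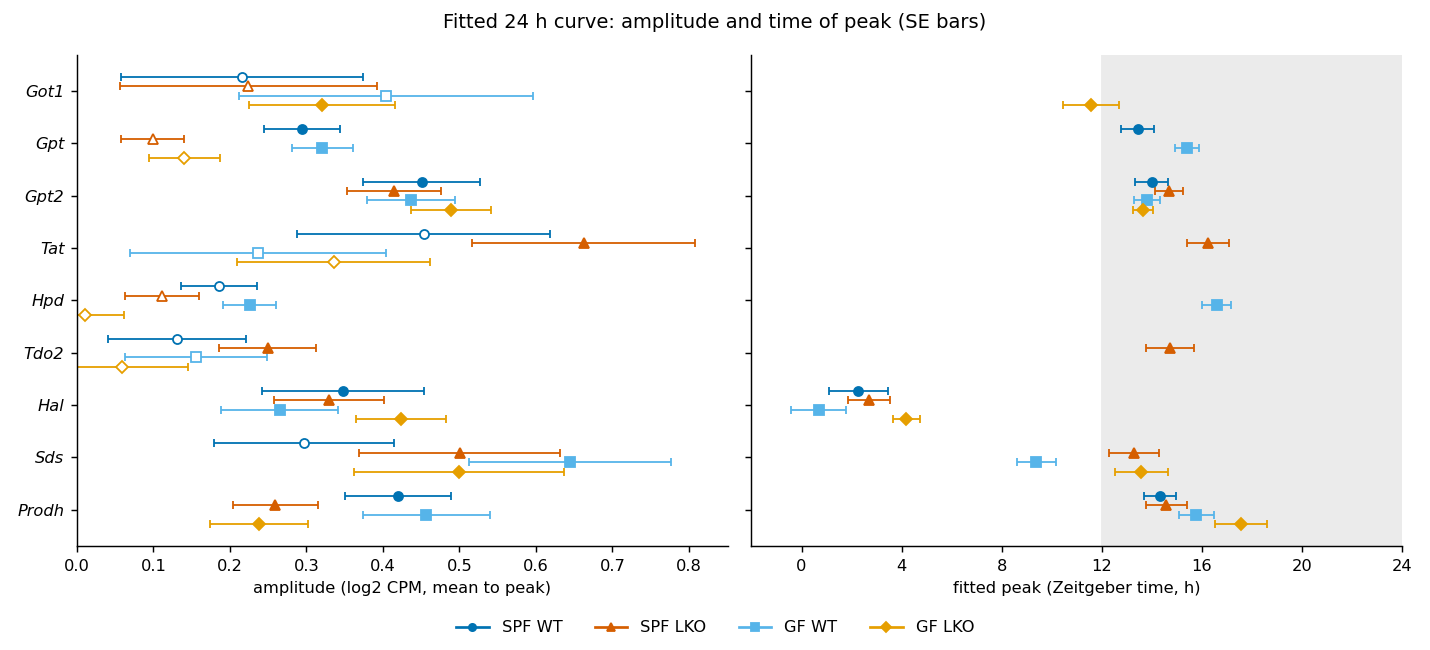
Left, amplitude of the fitted 24 h curve (log2 CPM, bars are SE) for each gene and condition, filled where the rhythm was called. Right, fitted peak in ZT hours (bars are SE) where it was called, with the dark period shaded. Gpt2 and Prodh peak in the dark in all conditions and Hal in the light.

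Tests of the difference in rhythm between conditions called 0 of the 9 genes in each of the 4 comparisons by edgeR. Over all genes 1.02% of 14442 were called between SPF LKO and SPF WT, 5.81% of 13806 between GF LKO and GF WT, 0.0355% of 14090 between GF WT and SPF WT, and 4.45% of 14234 between GF LKO and SPF LKO. At an unadjusted p under 0.05 there were 2, 5, 0 and 2 of the 9. The share of all genes at that threshold is not given here, so these counts cannot be set against it. The nearest to the threshold was Hpd between GF LKO and GF WT, with an adjusted p of 0.0509, and Gpt in the same comparison had 0.165. Without the 4 doubted libraries Prodh passed there (adjusted p = 0.0391). The conditions in which a gene was called rhythmic are thus not shown to differ from those in which it was not.

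Among the 9 genes, profiles over the 24 condition-by-ZT means were most alike for Gpt and Prodh (Pearson r = 0.84), Hpd and Prodh (0.74) and Hpd and Gpt (0.73), and most opposed for Hal and Prodh (-0.61). Over all genes the nearest to each were Pxmp2 for Hpd (0.94), Slc37a4 for Gpt2 (0.93), Ghitm for Tdo2 (0.91), Ascc1 for Got1 (0.90), Slc15a4 for Tat (0.89), Ppif for Gpt (0.89), Sgms2 for Hal (0.88), Serpina5 for Prodh (0.87) and Agap3 for Sds (0.82). The 24 means come from the same 72 libraries for every gene, so these values describe likeness and carry no test.

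The wider pathway was described with 47 other genes of amino acid breakdown, of which 46 were tested (Tdh, a threonine dehydrogenase, was too low). Between SPF LKO and SPF WT 14 of the 46 were higher and 2 lower, where 11.6% and 11.5% of all genes were. Between GF LKO and GF WT 17 were higher and 7 lower, where 15.6% and 15.2% were. The median log2 fold changes were 0.07 and 0.08, against -0.01 and 0.01 over all genes. Agxt, the alanine-glyoxylate aminotransferase, was higher by 0.80 ± 0.12 in SPF and 1.04 ± 0.09 in GF mice, and Aadat, an aminotransferase of the lysine and tryptophan pathways, by 0.68 ± 0.12 and 1.12 ± 0.08 (SE, log2 scale). Prodh2, a hydroxyproline dehydrogenase, was lower at -0.72 ± 0.11 and -1.14 ± 0.06, unlike its relative Prodh, which was called in neither. Oat, the ornithine aminotransferase, was higher in SPF mice (0.76 ± 0.14), and Afmid, the kynurenine formamidase that acts after Tdo2, was lower in GF mice (-0.86 ± 0.09, SE).

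Between GF WT and SPF WT 30 of the 46 were higher and 0 lower, where 14.2% and 17.7% of all genes were, and between GF LKO and SPF LKO 28 were higher and 2 lower, where 18.1% and 18.4% were. The median log2 fold changes were 0.22 and 0.21, against -0.02 in both cases over all genes. In WT and LKO livers 9 and 10 of the 13 branched-chain genes were higher, and 0 of the 3 histidine genes beside Hal were higher. Acmsd, which diverts tryptophan carbon away from NAD synthesis, rose by 0.93 ± 0.21 in WT and 1.37 ± 0.22 in LKO livers. Gcat, of threonine breakdown, rose by 0.71 ± 0.10 and 0.77 ± 0.07, and Aadat by 0.59 ± 0.10 and 1.05 ± 0.11 (SE, log2 scale). Agxt rose by 0.64 ± 0.09 in LKO livers. A 24 h rhythm was called for 15 of the 46 in SPF WT (15% of all genes), 8 in SPF LKO (21.2%), 25 in GF WT (26.7%) and 10 in GF LKO (35%). The difference in rhythm itself was called for 0 of the 46 between SPF LKO and SPF WT, 7 between GF LKO and GF WT, 0 between GF WT and SPF WT and 4 between GF LKO and SPF LKO by edgeR. At an unadjusted p under 0.05 there were 10, 21, 17 and 12 in the same order, again without a share of all genes to set them against.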

How the data were processed

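Liver RNA was made into stranded mRNA libraries and sequenced. Per the labels and the study's methods, the authors aligned reads to mm10 with STAR 2.6.1b and deposited raw counts per gene from featureCounts 2.0.0, 1 column for each of the 72 livers and 0 further sample columns. Per the file headers, the counting used exons of Ensembl release 97 with default settings, that is without strand and without reads that overlapped several genes or aligned to several places. Beside the counts the deposited table gives, under other annotation columns, the exonic length of each gene.

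Counts were scaled with TMM factors and tested with edgeR 4.0.16 (quasi-likelihood F test, filterByExpr) in R 4.3.3, with DESeq2 1.42.0 as an alternative. Pooled comparisons used the 36 livers of both conditions, single ZT the 12 livers of that ZT, rhythms a cosine and sine of 24 h, and p-values were adjusted over all genes by Benjamini-Hochberg, with calls at 0.05. CPM values use TMM factors over 72 libraries, and log2 CPM a prior count of 2. Gene symbols were matched for 55394 of 55573 identifiers. Of identifiers that share a symbol, the one with more counts was kept.

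On simulated counts for SPF LKO against SPF WT, the pooled test over 13079 genes recovered 193 of 200 changes of 0.5 on the log2 scale and called 8 others, the test of the difference of the genotype effect over 13355 genes 169 of 200 (7 others), the test at ZT10 over 13340 genes 183 of 200 changes of 1 (8 others), the rhythm test in SPF WT over 13429 genes 183 of 200 (3 others), and the difference in rhythm over 13481 genes 163 of 200 (10 others). The simulated counts had the spread within a condition and ZT, and no change over the day except in the rhythm tests. Changes were put only into genes above a minimum mean CPM. The pooled test of real counts also carries variation over the day, so its recovery there can be lower. Depth was 17369927 to 22076113 counts per library, so counting error is small beside the spread between livers. The labels name separate livers but not litters or days, so p-values measure the spread between these samples.

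The 9 genes, the other catabolism genes and the marker lists were chosen with earlier results of these data known. Named genes were all 9, the 4 largest called changes among the other catabolism genes in each pooled comparison (1 of which is not reported here), and for each of the 9 the gene nearest in profile. Normalization, the filter, ZT as a covariate, the replicate number, each library and the doubted libraries were varied. Protein sequences and the promoters of Gpt and Sds were not used here.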

Additional observations from a re-analysis of the deposited data

How the results depend on the processing

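The 3 genes called between GF LKO and GF WT (Got1, Gpt2 and Tdo2) kept their direction and call under DESeq2, RLE scaling, no filter, ZT as a covariate, the replicate block, without the doubted libraries and without each library in turn, as did Got1 and Gpt between SPF LKO and SPF WT, and Got1 and Hpd in both comparisons of GF with SPF. Tdo2 between SPF LKO and SPF WT missed the threshold without the filter (adjusted p = 0.0555). The number of genes called between SPF LKO and SPF WT, 3, became 5 with ZT as a covariate, with the replicate block, without the 2 doubted SPF LKO libraries and without all 4, and ranged from 3 to 5 without each library, with 5 reached without SPF LKO ZT14 replicate 2. In these fits Tat and Gpt2 were the genes added. Calls over all genes also rose, from 3043 in the main fit to 3698 with ZT as a covariate and 3570 with the block. They were 3695 without the 2 doubted SPF LKO libraries and 3674 without all 4. The calls over all genes without each library are not given here.

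Values near zero changed sign. Prodh between SPF LKO and SPF WT was -0.0504 without the 2 doubted libraries, -0.0596 without the 4, and -0.0279 to 0.0445 without each library. Sds between GF WT and SPF WT was -0.0086 with ZT as a covariate, -0.016 with the replicate block, and -0.0386 to 0.10 without each library. Gpt2 between GF LKO and SPF LKO was -0.0041 and -0.0007 in the same fits, and -0.0329 to 0.0642 without each library. The Hal interaction ran from -0.0703 to 0.0242 without each library.

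At single ZT, the counts of 4, 6, 5 and 4 calls rose to 13, 16, 18 and 12 without the filter. With DESeq2 the comparisons of GF with SPF rose to 14 in WT and 10 in LKO. Without the 4 doubted libraries the counts were 4, 7, 7 and 4, and the calls added are not named here. The share over all genes in these fits is not given here. Without each library the counts of calls ran from 2 to 5 between SPF LKO and SPF WT. They ran from 3 to 8 between GF WT and SPF WT, and from 2 to 6 between GF LKO and SPF LKO. Some calls hung on a single liver: Got1 at ZT2 between SPF LKO and SPF WT without SPF LKO ZT2 replicate 2 (adjusted p = 0.0588), and Prodh at ZT2 between GF WT and SPF WT without SPF WT ZT2 replicate 3 (adjusted p = 0.0609). Tat at ZT2 between SPF LKO and SPF WT had an adjusted p of up to 0.214. The difference in rhythm between GF LKO and GF WT, 0 genes, became 2 without the filter (Sds and Hal) and 1 without the 4 doubted libraries (Prodh). Over all genes 802 were called in the main fit, 906 without the filter and 908 without the 4 libraries. Leaving out 1 replicate number, and so 1 liver in 3, the genes called rhythmic ran from 1 to 4 in SPF WT, 1 to 5 in SPF LKO and 2 to 6 in GF LKO. The calls over all genes without a replicate number are not given here. With ZT as 6 levels, the rhythm of Hal was not called in SPF WT (adjusted p = 0.124), SPF LKO (0.0985) or GF WT (0.0627), nor that of Tat in SPF LKO (0.0693), while Sds was called in SPF WT (0.0257) and Tat (0.0303) and Gpt (0.0306) in GF LKO. Without the filter Tat was called in SPF WT (0.0130) and GF LKO (0.00067), and Got1 in GF WT (0.0428). The cause of these changes was not tested.

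Replicate numbers did not pair the livers. Over 72 pairs of livers with the same number and ZT the correlation of their deviations from group means ran from -0.235 to 0.337 (median -0.001), with 15 pairs above 0.1. The replicate block took the count between SPF LKO and SPF WT from 3 to 5, while calls over all genes went from 3043 to 3570. It took that between GF WT and SPF WT from 4 to 6, while calls over all genes went from 4069 to 4540. Tat and Gpt2 were added in both, and ZT as a covariate did the same, with 3698 and 4823 called over all genes. The block took the count between GF LKO and SPF LKO from 3 to 4 (Prodh, adjusted p = 0.0168), while calls over all genes went from 4741 to 5046. It took the rhythms in SPF WT from 4 to 6 (Hpd and Tat), while those over all genes went from 2087 to 2017. The block moved no other count by more than 1.5 times.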
